A study of Mus musculus with 6 samples.

Results

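MHC class I presentation was followed through 10 genes, picked by symbol out of the 36557 rows of a gene table. They are the heavy chain genes H2-K1, H2-D1, H2-Q4, H2-Q6, H2-Q7, H2-T22 and H2-T23, the light chain gene B2m, the peptide transporter gene Tap1 and the immunoproteasome gene Psmb8, each with 1 row. RNA had been sequenced from the arch and thoracic part of the aorta of mice fed a high-fat diet for 4 weeks. The knockout group held 3 libraries of genotype Apoe-/- MiR26b-/-, called knockouts here, and the control group held 3 libraries of genotype Apoe-/- control, so all 6 libraries lacked apolipoprotein E and differed by the microRNA gene. Loss of apolipoprotein E raises plasma cholesterol in mice and leads to atherosclerotic plaque. The labels give no strain, age or sex, no cell type to which a deletion was limited, and no word on whether animals were pooled or each library came from its own animal, so each p-value sets a difference against the spread from library to library only.

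A class I molecule is a heavy chain held together with beta-2 microglobulin and a short peptide at the cell surface, where CD8 T cells and natural killer cells read it. The peptides are cut by proteasomes in the cytosol, carried into the endoplasmic reticulum by the Tap1 and Tap2 transporter, and fitted to the heavy chain by loading factors such as tapasin. Nearly all nucleated cells make class I molecules, in an artery wall smooth muscle, endothelium and fibroblasts as well as leukocytes, and interferons raise the whole pathway through factors such as Irf1 and the coactivator Nlrc5.

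Of the 10 genes, 8 rose in knockouts and 0 fell, at an adjusted p under 0.05 (edgeR's quasi-likelihood test, adjusted by Benjamini-Hochberg over all 17392 genes tested). Over all genes tested, 6.50% rose (1131 genes) and 3.84% fell (667 genes). The median log2 difference was 0.52 for the 10 genes and -0.0033 for all genes tested. In the same 8 genes every knockout library lay above every control library, a pattern that 18.9% of all tested genes showed. The exceptions were H2-Q6 and H2-Q7. With scaling by library size alone, 1476 genes rose and 447 fell, and 8 of the 10 members still rose.

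All libraries were deep, with between 51634139 and 54817547 deposited estimated counts. In these units 1 read was worth between 0.903 and 1.07 by library, so the totals are not exact read numbers. Smooth muscle markers, which define the vessel wall, were abundant in every library. Knockout replicate 3 stood apart from the other knockouts: on the first principal component of all tested genes, with 61.9% of the variance, it scored 0.97, against 47.05 and 55.72 for knockout replicates 1 and 2 and between -45.35 and -25.42 for controls. Without it, 8 of the 10 members rose again in edgeR and H2-Q6 fell, while 3051 genes rose and 2028 fell in all. With any other library left out instead, edgeR called 0 or 1 members higher. Over all genes it then called only between 0 and 52 higher and between 0 and 22 lower. The table had no microRNA rows, so the deletion itself was not checked. Ctdsp1, the phosphatase gene whose intron holds Mir26b, had 184, 185 and 196 CPM (counts scaled by library total and TMM factor) in knockouts and 191, 195 and 199 CPM in controls, a log2 difference of -0.05 (SE 0.05) with an edgeR adjusted p of 0.555.

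The sequences before the start sites of the heavy chain genes and B2m are shown because these genes are known in mammals to be driven by a shared promoter block. RefSeq promoters on GRCm38.p6 cover 250 bases before to 50 after each start. Capitals mark matches to a kappa B motif (GGGATTCCC), an interferon-response motif (GTTTCACTT), a paired GAA motif (GAAANNGAA) and the CCAAT box (CCAAT), searched on both strands, and each stretch runs 5′ to 3′ on the gene's strand. In order they are chr17:34000354-34000462 (minus), chr17:35262919-35263050, chr17:35424673-35424804, chr17:35439018-35439148 and chr17:35379458-35379571 (plus), chr17:36042796-36042948 and chr17:36032744-36032829 (minus), and chr2:122147543-122147643 (plus).
H2-K1: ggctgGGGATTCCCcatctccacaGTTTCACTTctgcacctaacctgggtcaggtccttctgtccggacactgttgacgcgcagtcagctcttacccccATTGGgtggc
H2-D1: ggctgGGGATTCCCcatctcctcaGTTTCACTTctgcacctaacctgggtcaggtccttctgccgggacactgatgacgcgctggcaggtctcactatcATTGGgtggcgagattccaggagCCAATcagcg
H2-Q6: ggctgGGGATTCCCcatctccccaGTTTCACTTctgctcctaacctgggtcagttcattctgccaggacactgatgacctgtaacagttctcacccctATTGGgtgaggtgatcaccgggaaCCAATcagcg
H2-Q7: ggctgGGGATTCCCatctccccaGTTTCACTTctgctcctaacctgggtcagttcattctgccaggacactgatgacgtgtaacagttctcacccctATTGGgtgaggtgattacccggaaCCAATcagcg
H2-Q4: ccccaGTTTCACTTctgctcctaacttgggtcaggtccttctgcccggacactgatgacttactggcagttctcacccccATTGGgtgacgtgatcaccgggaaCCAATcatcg
H2-T22: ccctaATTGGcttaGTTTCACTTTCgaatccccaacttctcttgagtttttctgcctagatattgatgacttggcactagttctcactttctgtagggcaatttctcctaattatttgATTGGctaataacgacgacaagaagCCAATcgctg
H2-T23: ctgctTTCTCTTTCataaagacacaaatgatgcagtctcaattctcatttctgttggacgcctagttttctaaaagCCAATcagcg
B2m: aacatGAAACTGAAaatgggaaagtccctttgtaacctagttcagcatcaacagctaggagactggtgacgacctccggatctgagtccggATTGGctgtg

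The kappa B motif occurred in the windows of H2-K1, H2-D1, H2-Q6 and H2-Q7, 4 of the 10 members, and in 0.37% of 27025 promoters. The interferon-response motif occurred in those 4 and in H2-Q4 and H2-T22, 6 of 10, against 0.403% of all promoters. The paired GAA motif was found in H2-T22, where it overlaps the interferon-response motif, and in H2-T23 and B2m, 3 of 10, against 8.57%. The CCAAT box is common, at 37.9% of promoters, and was in 9 of the 10, all but Psmb8. These counts are descriptions of letters: the heavy chain genes descend from common ancestors, so their windows are not independent. The kappa B and interferon-response motifs were searched only in the exact letters given, which H2-K1 and H2-D1 carry. Other spellings of these motifs were not searched, so a window without a match may still hold such a site. For the same reason the shares over all promoters cannot serve as a test of enrichment. H2-Q6 and H2-Q7, the members that did not rise, hold the kappa B and interferon-response letters that H2-K1 and H2-D1 hold. The windows of Tap1 and of Psmb9, its neighbour on the opposite strand, overlap by 275 bases.

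The deleted microRNA acts by pairing bases 2 to 8 of its mature strand, the seed, with 3′ UTRs. Its mature sequence in RefSeq lies at chr1:74394324-74394344 on the plus strand, with the seed in capitals.
miR-26b-5p: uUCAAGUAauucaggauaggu

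The 7-base match to that seed, UACUUGA, was in the longest annotated 3′ UTR of 0 of the 10 members, against 9.66% of 21037 protein-coding genes (2033 genes). The members' UTRs were short, with a median of 453 bases against 960 bases over all genes.

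H2-K1 and H2-D1 encode the classical heavy chains, which present peptides to CD8 T cells, and both rose in knockouts. H2-K1 (chr17:33996017-34000347) had 453, 503 and 460 CPM in knockouts, against 344, 357 and 311 CPM in controls. The groups did not overlap, and the 1.40-fold difference (log2 0.48, SE 0.08) had an edgeR adjusted p of 0.0271. H2-D1 (chr17:35262730-35267499) had 752, 817 and 628 CPM in knockouts, against 455, 460 and 438 CPM in controls. It was 1.62-fold higher in knockouts (log2 0.70, SE 0.10, edgeR adjusted p 0.0240), and knockout replicate 3 was the lowest of its group.

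Per transcript length, these genes made up most of the heavy chain RNA. In the deposited TPM, H2-D1 stood at 602 ± 81.1 in knockouts and 364 ± 9.47 in controls, and H2-K1 at 572 ± 34.6 in knockouts and 411 ± 31.8 in controls (SD, n = 3 each). In knockouts the spreads of H2-D1 and H2-K1 overlapped, whereas in controls every H2-K1 value lay above every H2-D1 value. The ratio of H2-K1 to H2-D1 in TPM was 0.882, 0.914 and 1.08 in knockouts, against 1.14, 1.18 and 1.06 in controls, groups that overlapped.

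The nonclassical genes of the T region rose too. H2-T23 encodes Qa-1, which shows leader peptides of classical chains to NK cell receptors of the CD94 and NKG2 type. It had 103, 110 and 90.1 CPM in knockouts, against 52.9, 57.4 and 50.9 CPM in controls (chr17:36029773-36032855). Its 1.88-fold rise (log2 0.91, SE 0.09) had an edgeR adjusted p of 0.0100, the lowest among the 10 genes. H2-T22, known in mice as a ligand of some gamma-delta T cell receptors, had 74.2, 79.0 and 72.2 CPM in knockouts, against 53.6, 57.7 and 52.2 CPM in controls (chr17:36037128-36042747). That was 1.38-fold higher in knockouts (log2 0.46, SE 0.06, edgeR adjusted p 0.0186), with tight groups.

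The genes of the Q region did not move as one. H2-Q4 (chr17:35379617-35385290) encodes a nonclassical heavy chain and had 81.7, 83.4 and 93.1 CPM in knockouts, against 69.4, 67.0 and 66.1 CPM in controls, 1.28-fold higher (log2 0.35, SE 0.06, edgeR adjusted p 0.0322). H2-Q7 (chr17:35439155-35443773), one of the genes of the Qa-2 antigen, had 47.4, 57.5 and 71.6 CPM in knockouts, against 49.3, 47.7 and 50.2 CPM in controls. Its log2 difference of 0.26 (SE 0.14) had an edgeR adjusted p of 0.264, with knockout replicate 1 below every control.

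H2-Q6 (chr17:35424850-35430055), also a Qa-2 gene, had 40.2, 42.6 and 71.2 CPM in knockouts, against 58.8, 46.3 and 58.1 CPM in controls. Knockout replicates 1 and 2 lay below all controls and replicate 3 above all of them. Its log2 difference was -0.09 (SE 0.23) with an edgeR adjusted p of 0.835. Without knockout replicate 3 it was -0.40 with an edgeR adjusted p of 0.0431, and without knockout replicate 1 or 2 it was 0.06 or 0.03, in that order. Summed over both genes, the TPM was 66.9, 77.2 and 112 in knockouts, against 82.2, 70.4 and 82.5 in controls.

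**Figure D1:**
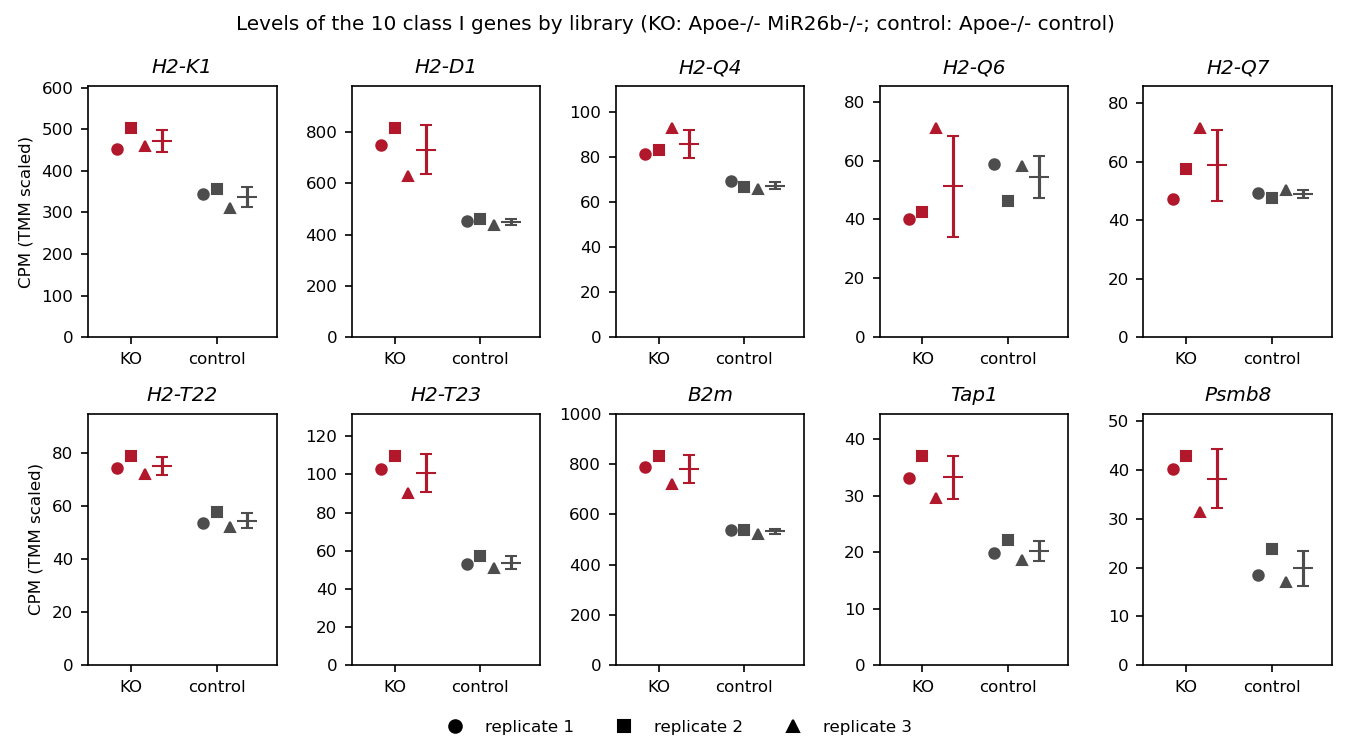
CPM after TMM scaling for each of the 10 genes, with 1 point per library, the mean ± SD of each group beside its points (n = 3) and knockouts (red) left of controls (grey). All knockout points lie above all control points in 8 genes, and the groups overlap for H2-Q6 and H2-Q7, where knockout replicate 3 is the highest point.

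Reads of these related genes are hard to assign. Of the 31-base words in the transcripts of each gene, the share also found in another gene was 22.8% for H2-K1, 26.9% for H2-D1, 53.0% for H2-Q4, 51.8% for H2-Q6, 39.2% for H2-Q7, 67.4% for H2-T22 and 25.8% for H2-T23. H2-T22 shared 47.2% of its words with H2-T10, and H2-Q6 shared 24.6% with H2-Q4 and 18.4% with H2-Q7. Values of single Q and T region genes, and the contrast of H2-Q4 with H2-Q6, are therefore uncertain where estimated counts were split among copies. B2m shared 0%, Tap1 4.09% and Psmb8 13.7%. H2-Q8, H2-Q9 and H2-T9 were not analysed here.

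B2m (chr2:122147686-122153083) encodes the light chain that every class I molecule needs, and it lies on another chromosome than the heavy chains. It had 787, 834 and 721 CPM in knockouts, against 537, 537 and 521 CPM in controls. The 1.47-fold rise (log2 0.55, SE 0.07) had an edgeR adjusted p of 0.0186, and the control values were nearly equal. In TPM it stood at 1946 ± 143 in knockouts and 1309 ± 26.7 in controls (SD, n = 3 each), the highest level among the 10 genes in each group.

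The ratio of the light chain to the heavy chains overlapped between groups. The TPM of the 7 heavy chains summed to 1511, 1641 and 1434 in knockouts, against 1046, 1056 and 978 in controls. B2m divided by that sum was 1.31, 1.26 and 1.25 in knockouts, against 1.27, 1.25 and 1.31 in controls, with means of 1.273 in knockouts and 1.276 in controls. Within the sum, H2-T23 made up 8.11%, 7.94% and 7.34% in knockouts, against 5.94%, 6.27% and 6.08% in controls, and H2-Q6 made up 2.20%, 2.12% and 4.03% in knockouts, against 4.54%, 3.51% and 4.78% in controls.

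Tap1, a subunit of the transporter that carries peptides into the endoplasmic reticulum, rose, as did its partner Tap2. It had 33.1, 37.1 and 29.6 CPM in knockouts, against 19.9, 22.2 and 18.6 CPM in controls (chr17:34187553-34197225). It was 1.64-fold higher in knockouts (log2 0.72, SE 0.11, edgeR adjusted p 0.0240). Tap2 had 52.2, 52.2 and 55.6 CPM in knockouts, against 45.6, 47.6 and 45.5 CPM in controls, higher by 0.21 on the log2 scale with an edgeR adjusted p of 0.0480. The ratio of Tap1 to Tap2 in TPM was 0.570, 0.682 and 0.486 in knockouts, against 0.408, 0.457 and 0.326 in controls. These groups did not overlap, though an exact two-sided permutation test of 3 against 3 cannot give a p below 0.1.

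Psmb8 (chr17:34197721-34201454) encodes an interferon-inducible catalytic subunit that takes the place of Psmb5 in the immunoproteasome. It had 40.2, 43.0 and 31.4 CPM in knockouts, against 18.5, 23.9 and 17.0 CPM in controls. Its 1.93-fold rise (log2 0.95, SE 0.16, edgeR adjusted p 0.0304) was the largest fold among the 10 genes, and knockout replicate 3 was again the lowest knockout.

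**Figure D2:**
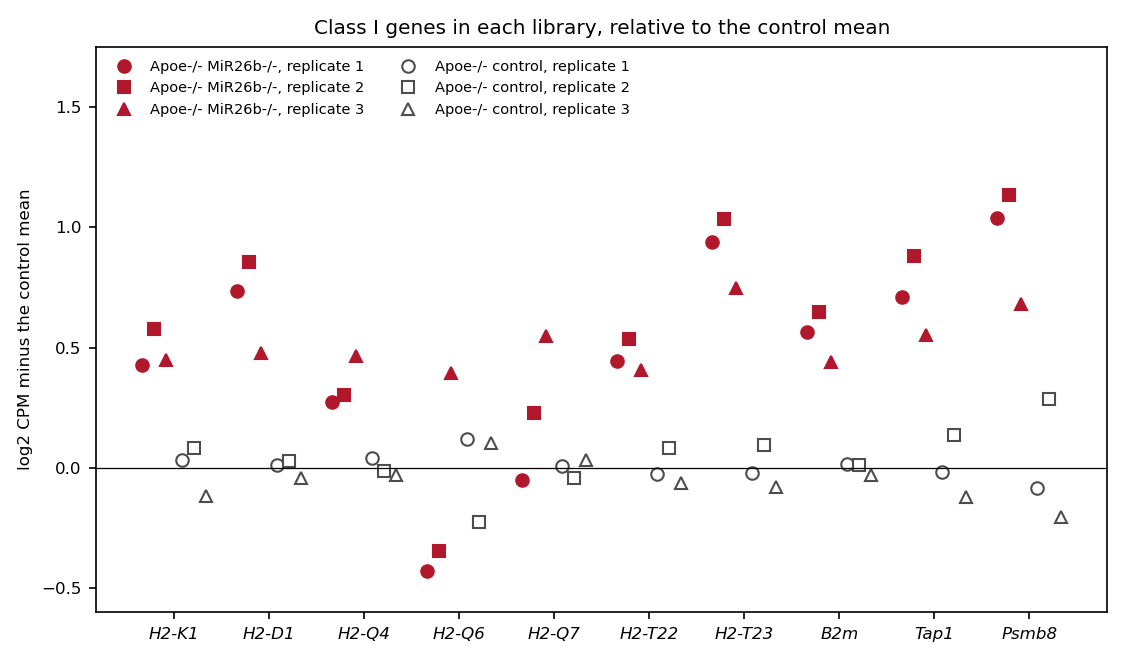
Log2 difference of each library from the control mean for the 10 genes, with knockout libraries (filled red) left of control libraries (open grey). The 8 genes that rose are above 0 in every knockout library, with values between 0.28 (H2-Q4) and 1.13 (Psmb8), while H2-Q6 is below 0 in knockout replicates 1 and 2 and above 0 in replicate 3.

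Other genes of the pathway were taken from 4 lists that hold 50 genes, of which 41 were tested, 14 rose and 0 fell, with a median log2 difference of 0.14. In the peptide loading list 3 of 7 rose and 0 fell. These were Tap2, Tapbp (tapasin, which bridges heavy chain and transporter, 1.28-fold, edgeR adjusted p 0.0260) and Tapbpl (a tapasin relative that edits peptides, 1.22-fold, edgeR adjusted p 0.0377). The general chaperone genes Calr, Canx and Pdia3 and the trimming enzyme gene Erap1 had log2 differences between 0.08 and 0.14, with edgeR adjusted p between 0.235 and 0.504.

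Of 5 other immunoproteasome genes and activators 3 rose. Psmb9, a second inducible catalytic subunit, had 16.3, 17.4 and 14.6 CPM in knockouts, against 9.87, 12.1 and 8.16 CPM in controls (edgeR adjusted p 0.0421). Psmb10, the remaining inducible subunit, had 41.2, 41.2 and 33.7 CPM in knockouts, against 22.02, 27.26 and 22.99 CPM in controls (edgeR adjusted p 0.0296). The activator gene Psme1 was 1.29-fold higher (edgeR adjusted p 0.0269), whereas its partner Psme2 (log2 0.32) and the assembly factor gene Pomp (log2 0.19) had edgeR adjusted p of 0.0541 and 0.250.

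The constitutive core had 0 of 14 genes called in either direction, with log2 differences between -0.04 and 0.16 and a lowest edgeR adjusted p of 0.157 (Psma4). Its catalytic genes Psmb5, Psmb6 and Psmb7, named as the counterparts of the inducible subunits, had log2 differences of 0.01, 0.10 and -0.04. The TPM ratio of Psmb8 to Psmb5 was 0.592, 0.639 and 0.510 in knockouts, against 0.272, 0.380 and 0.259 in controls. The ratio of Psmb10 to Psmb7 was 0.533, 0.562 and 0.479 in knockouts, against 0.271, 0.350 and 0.321 in controls, and that of Psmb9 to Psmb6 was 0.0795, 0.0904 and 0.0869 in knockouts, against 0.0564, 0.0647 and 0.0471 in controls. Groups did not overlap in any of these 3 ratios, for which an exact two-sided permutation test of 3 against 3 cannot give a p below 0.1.

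**Figure D3:**
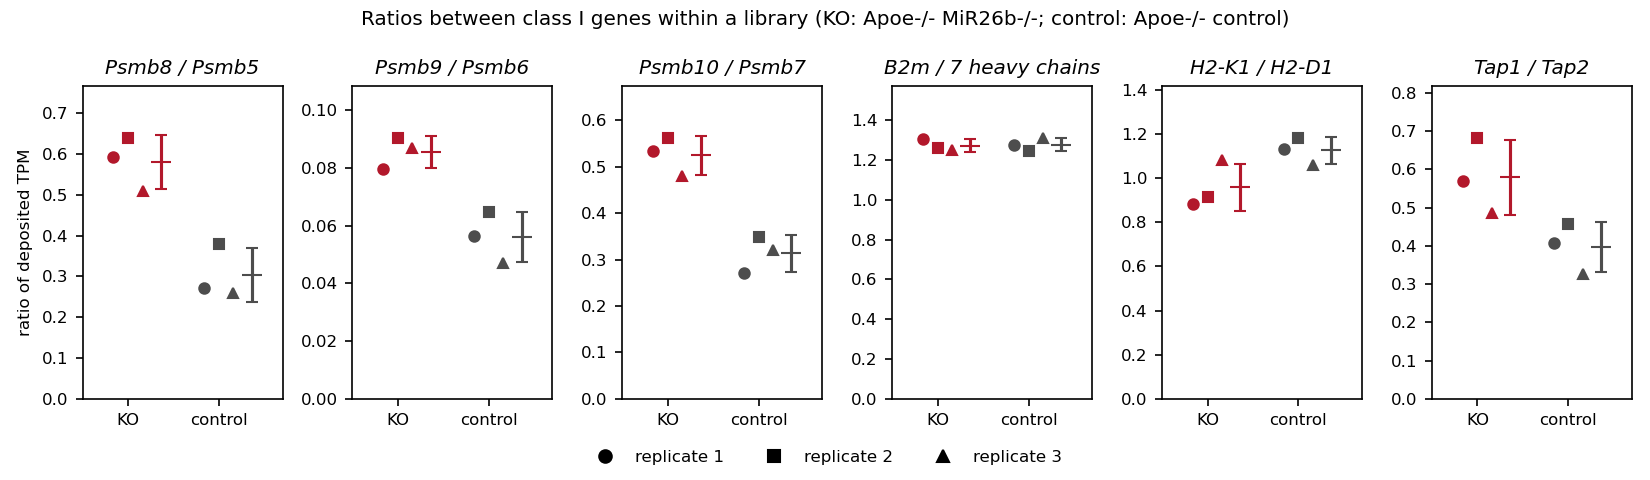
TPM ratios by library with the mean ± SD of each group, knockouts (red) left of controls (grey). The ratios of B2m to the summed heavy chains and of H2-K1 to H2-D1 overlap between groups, and those of inducible to constitutive proteasome subunits and of Tap1 to Tap2 do not.

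Among 14 transcription factor genes of the pathway 4 rose and 0 fell. Stat2 (1.64-fold, edgeR adjusted p 0.0107) and Irf9 (1.65-fold, edgeR adjusted p 0.0130) encode parts of the complex that type I interferon activates. Irf1, which binds interferon-response motifs, was 1.41-fold higher (edgeR adjusted p 0.0151). Nlrc5, the class I coactivator, had 18.8, 24.3 and 19.4 CPM in knockouts, against 12.4, 12.8 and 11.2 CPM in controls (log2 0.78, SE 0.12, edgeR adjusted p 0.0246). The other 10 genes of that list, among them the subunits of the RFX and NF-Y complexes, were not called. The NF-Y subunit gene Nfya had a log2 difference of -0.24 (SE 0.06) with an edgeR adjusted p of 0.0593.

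Of 15 tested genes among other class I and class I-like genes 4 rose and 0 fell. H2-T24 was 2.17-fold higher in knockouts (edgeR adjusted p 0.0159), with 12.2, 14.2 and 12.0 CPM in knockouts against 5.67, 6.84 and 5.15 CPM in controls. Hfe, a class I-like regulator of iron uptake, was 1.47-fold higher (edgeR adjusted p 0.0324). H2-M3, which presents formylated peptides, was 1.47-fold higher (edgeR adjusted p 0.0421), and H2-K2 was 1.64-fold higher (edgeR adjusted p 0.0443). H2-M9 stood in the other direction just outside the threshold, with 3, 5.3 and 6.1 estimated counts in knockouts against 32.6, 18 and 11 in controls (log2 -2.13, SE 0.52, edgeR adjusted p 0.0512), without overlap and at a very low level.

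The interferon genes themselves were near 0. Ifng had 7.1, 1.1 and 0 counts in knockouts and 4.1, 4.5 and 0 counts in controls, and Ifnb1 had 0, 1.1 and 0 counts in knockouts and 0 in every control, too few to test. Of 5 tested receptor genes Ifngr1 rose (1.32-fold, edgeR adjusted p 0.0325). Ifnar1 and Ifnar2 had log2 differences of 0.34 and 0.57 with edgeR adjusted p of 0.0540 and 0.0591.

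**Figure D4:**
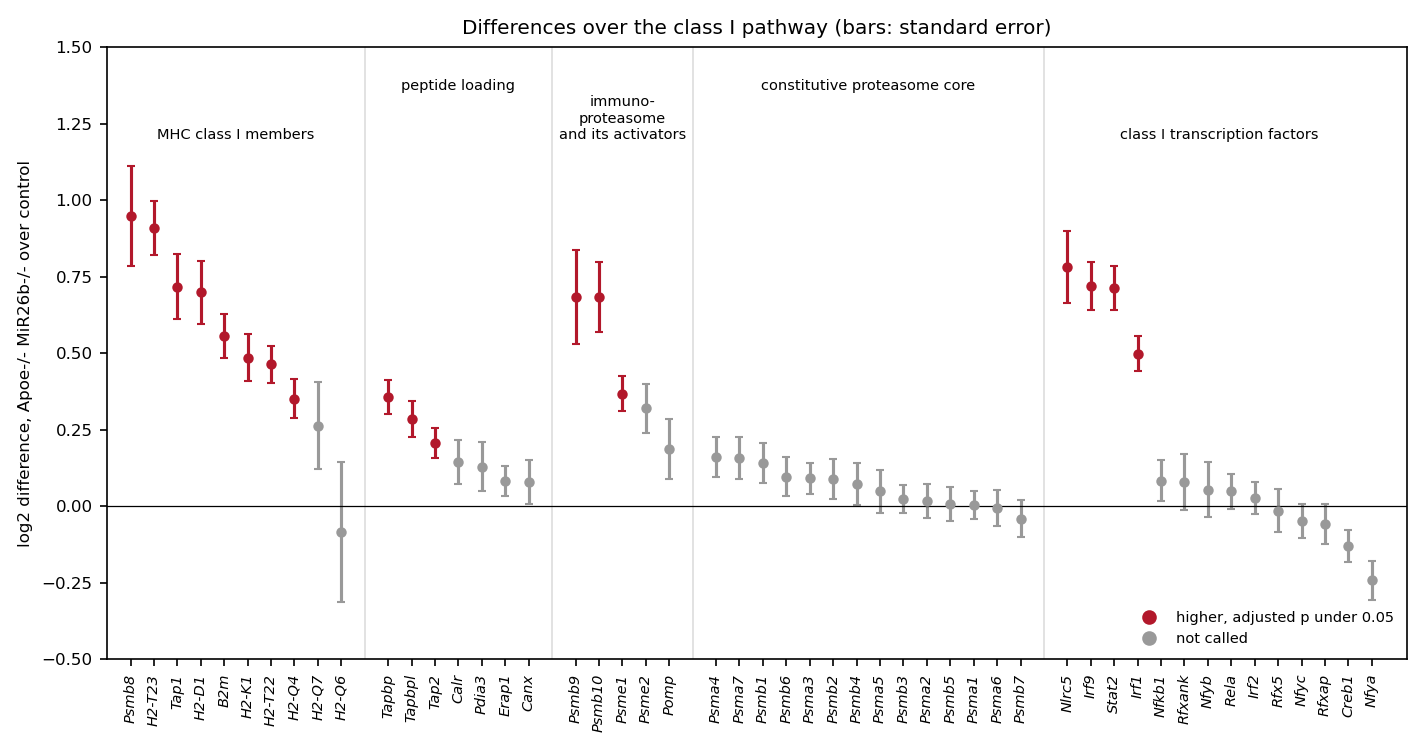
Log2 difference of knockouts over controls with its standard error for the 10 genes and for loading, proteasome and transcription factor genes, grouped by role, in red for an edgeR adjusted p under 0.05 and in grey otherwise. All members but H2-Q6, and the inducible proteasome genes, lie above 0, and the 14 constitutive core genes lie between -0.04 and 0.16.

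B2m had close company in its pattern over the 6 libraries. By root mean square difference of centred log2 CPM, the 5 nearest genes that are not members were Cadm1 (0.031), Slc46a3 (0.032), Mov10 (0.036), Zc3hav1 (0.037) and Parp9 (0.039). The nearest members were H2-T22 at 0.063, H2-K1 at 0.071 and H2-D1 at 0.087, and the farthest was H2-Q6 at 0.479.

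Markers of several cell types also differed between the groups. Of 12 macrophage and other leukocyte genes 11 rose and 0 fell, Fcgr1 5.57-fold and Lyz2 5.10-fold (edgeR adjusted p 0.0224 and 0.0300), with a median log2 difference of 2.01. Their summed level was 3063, 3397 and 1246 CPM in knockouts, against 675, 668 and 522 CPM in controls. That of the 10 class I genes was 2411, 2607 and 2268 CPM in knockouts, against 1659, 1676 and 1583 CPM in controls. Knockout replicate 3 was the lowest knockout in both sums and was much closer to the other knockouts in the class I sum. In bulk tissue, fewer cells of a type and less RNA per cell cannot be told apart.

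Genes of MHC class II presentation, a pathway of macrophages, dendritic cells and B cells, had 6 of 11 higher in knockouts and 0 lower. Their median log2 difference was 1.31, and the list holds presenting chains as well as genes that assist or regulate them. H2-Aa had 362, 391 and 221 CPM in knockouts, against 87.9, 116 and 54.8 CPM in controls (edgeR adjusted p 0.0300). Among 13 tested genes of CD8 T and NK cells 4 rose, Klrd1 5.48-fold and Klrk1 3.85-fold (edgeR adjusted p 0.0250 and 0.0325). Log2 differences over the 13 genes ran from -0.61 to 2.46, with 10 above 0. Cd8a had 2.15, 2.73 and 1.53 CPM in knockouts and 3.01, 2.27 and 1.10 CPM in controls. Klrd1 encodes CD94, the partner of the Qa-1 receptors, and averaged 1.19 CPM in knockouts and 0.216 CPM in controls. Their summed level, 13.9, 18.9 and 10.4 CPM in knockouts and 11.9, 12.8 and 5.40 CPM in controls, overlapped between groups.

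Of 8 smooth muscle genes 4 fell and 0 rose, Acta2 to 0.672-fold (edgeR adjusted p 0.0322). Their sum was 24161, 22549 and 26967 CPM in knockouts, against 33525, 33524 and 38614 CPM in controls. Of 8 endothelial genes 3 rose, of 8 adventitial fibroblast genes 4 rose, and none of either list fell. The endothelial sum overlapped between groups, with 2043, 1868 and 1994 CPM in knockouts against 1657, 1693 and 2095 CPM in controls. The fibroblast sum was 11784, 12722 and 9849 CPM in knockouts, against 9103, 8779 and 7522 CPM in controls. Of 6 B cell genes 0 were called, with control replicate 2 high at 64.0 CPM summed over the list against at most 10.6 CPM in the other libraries. Of 9 fat genes 0 were called. The part of these cell type markers in the class I differences was not tested.

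**Figure D5:**
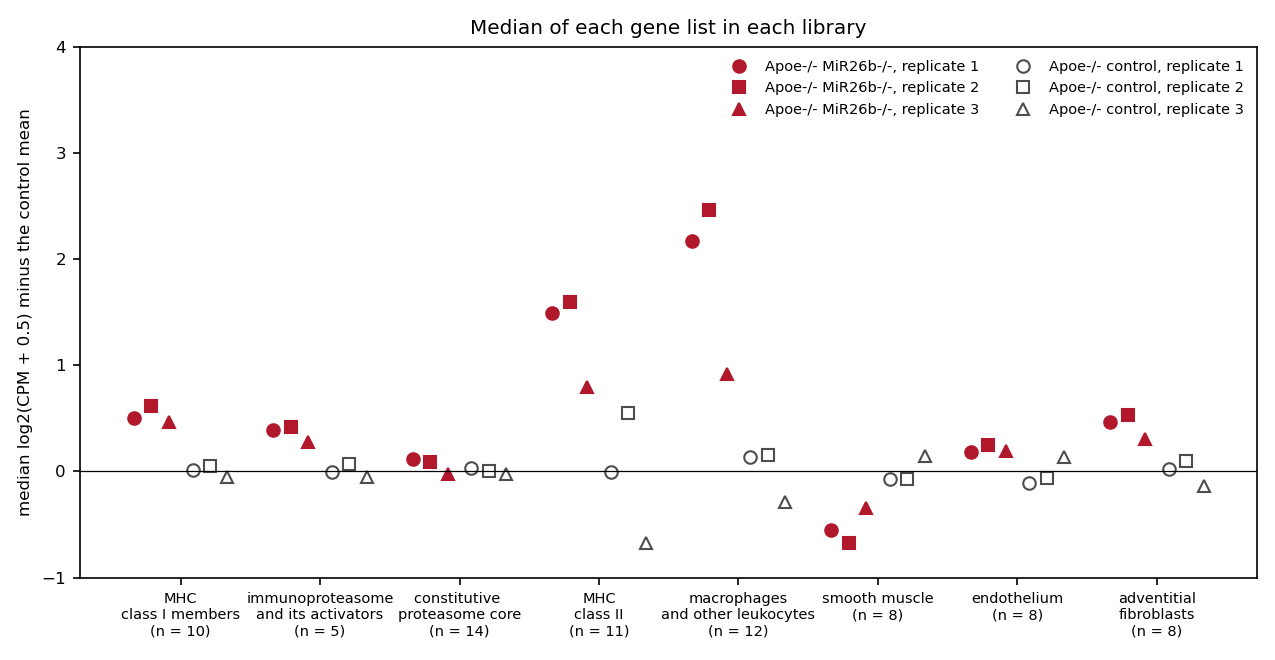
Median log2 difference of each library from the control mean for the class I genes and 7 other lists, as the median of log2(CPM + 0.5) over a list, with knockout libraries (filled red) left of control libraries (open grey). Macrophage and other leukocyte genes sit at 2.17, 2.46 and 0.92 in knockouts, and class I genes at 0.50, 0.61 and 0.47.

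The edgeR calls depended on which library was left out. The number of members called higher was 0 without knockout replicate 1, control replicate 1 or control replicate 3. It was 1 without knockout replicate 2 or control replicate 2, and 8 without knockout replicate 3. Over all genes, edgeR called between 0 and 52 higher in the runs that kept knockout replicate 3, and 3051 without it. Across all runs with 1 library left out, 8 or 9 members had an unadjusted edgeR p under 0.05, in either direction. So did 3710 of 17638 tested genes without knockout replicate 2, the fewest, and 7326 of 17720 without knockout replicate 3, the most. The log2 differences of the 8 members that rose with all libraries kept their sign. DESeq2 on the same sets of 5 libraries called 8 or 9 of the 10 higher, and 1 lower without knockout replicate 3. Over all genes DESeq2 called between 1172 and 3127 higher in these runs.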

How the data were processed

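RNA of 6 mouse aorta libraries was compared as 3 Apoe-/- MiR26b-/- against 3 Apoe-/- control. Reads were assigned with kallisto 0.46.2 on GRCm38 after Trim Galore 0.6.5 and FastQC 0.11.8, per the submitters' processing notes. The mean RNA integrity number was 7.0 per the labels. The deposited estimated counts of 36557 rows are not whole: 1 read was worth between 0.903 and 1.07 by library, and no source used here records why. The deposited TPM had been rescaled by the authors (columns sum to between 955527 and 1034723) and is used as a signal. Estimated counts were rounded, kept where filterByExpr passed them at a minimum count of 10, given TMM factors and tested across all genes with edgeR 4.0.16 in R 4.3.3 (quasi-likelihood, Benjamini-Hochberg, 0.05); the fit was tested on simulated data. SE is the log2 difference over the root of F. Lists use medians of log2(CPM + 0.5). Promoters and the miRNA come from RefSeq, and UTRs and positions from GENCODE mouse release 21. No pair of libraries within a group differed by as little as sampling noise.

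The 10 members and the lists were chosen with earlier results of these data known. Named genes are the members, Ctdsp1, up to 4 tested genes of lowest p in each list, any tested loading or immunoproteasome gene, and the 5 nearest to B2m. Outside this rule, chosen after their values were seen, are Psmb5, Psmb6, Psmb7, Cd8a, Ifng, Ifnb1, H2-M9, Nfya, H2-Q10 and Cd1d1. Alternatives were other scaling and filters, DESeq2 1.42.0, limma 3.58.1 (voom, and log2 of TPM plus 1 or 0.1), a replicate block, summed copies and each library left out. Undoing the value of 1 read, and DESeq2 without each library, were chosen after seeing the data. Strand of the libraries is not given in the sources used here, so overlapping genes cannot be separated. 1 gene of the lists is not reported here and is left out of the list counts.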

Additional observations from a re-analysis of the deposited data

How the results depend on the processing

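The 8 members that rose kept their direction under every alternative run, and 8 were called under all 10 that changed scaling, filter, tool, unit or copies or undid the value of 1 read. The replicate block called 7, since H2-Q4 had a log2 difference of 0.35 with an edgeR adjusted p of 0.0506. The block gave 1295 genes higher and 700 lower, and 13 other pathway genes higher. Replicate numbers were not taken to pair the libraries. Deviations of same-numbered libraries correlated at -0.092, 0.234 and 0.076. Knockout replicate 1 correlated best with control replicate 3 (0.116), whereas knockout replicates 2 and 3 each correlated best with the control of their own number. For knockout replicate 3 the next value was 0.072, with control replicate 1. These correlations do not settle whether the libraries were paired. Counts over all genes also moved with the tool and the unit: 2086 higher and 1357 lower with DESeq2, 559 higher with limma-voom, 461 higher and 251 lower with limma on log2(TPM + 1), and 641 higher and 301 lower on log2(TPM + 0.1). Other pathway genes called higher were 8 of 41 on log2(TPM + 1). With 1 library left out, edgeR called between 0 and 3051 genes higher, 0 and 2028 lower, 0 and 8 members higher and 0 and 18 other pathway genes higher. It called 0 genes without control replicate 1 or 3, with lowest adjusted p of 0.0576 and 0.0524 and 4056 genes with an unadjusted p under 0.05 either way; DESeq2 then called 1482 and 1445 genes higher. It called 7 higher and 5 lower without knockout replicate 1, 40 and 22 without knockout replicate 2, and 52 and 19 without control replicate 2. H2-Q6 reversed to 0.063 without knockout replicate 1 and to 0.033 without knockout replicate 2, in a range of -0.396 to 0.063; the cause was not tested.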

Other observations

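A pair of class I and class I-like genes outside the members stood out after their values were seen, because their order over libraries crossed the groups. H2-Q10, a heavy chain gene known from mouse liver, had 6.06, 8.01 and 14.5 CPM in knockouts, against 14.9, 9.49 and 6.43 CPM in controls (log2 -0.11, SE 0.41, edgeR adjusted p 0.885). Cd1d1, which presents lipids to NKT cells, had 7.77, 11.5 and 22.1 CPM in knockouts, against 25.2, 18.4 and 8.46 CPM in controls (log2 -0.33, SE 0.49, edgeR adjusted p 0.688). The summed level of 9 fat genes was 400, 612 and 1714 CPM in knockouts, against 2200, 1364 and 661 CPM in controls. In all 3 of these series control replicate 1 was the highest library, knockout replicate 3 the next and knockout replicate 1 the lowest. H2-Q7 shares 22.4% of its 31-base words with H2-Q10. The part of fat tissue in these values was not tested.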
